A study of Mus musculus with 6 samples.

Results

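The Sall genes encode zinc finger transcription factors of vertebrates related to Drosophila spalt, and the mouse has 4 of them: Sall1, Sall2, Sall3 and Sall4. The members here were chosen by gene alone: every array probe whose RefSeq accession belongs to one of these genes. The rule gave 6 of the 41174 non-control probes, namely 1 for Sall1, 1 for Sall2, 2 for Sall3 and 2 for Sall4. No measured value entered this rule, but the family was taken up with earlier results of these data known. All 6 probes were above the scanner software's background limit ("well above background") on every array, none was saturated or had an outlier flag, and all 6 entered the tests.

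Sall proteins bind DNA through pairs of C2H2 zinc fingers, and several of them recruit the nucleosome remodelling and deacetylase complex, NuRD, through a short motif at the amino terminus. In the embryonic kidney Sall1 is made in the nephron progenitors, the cap mesenchyme cells that are marked by Six2 and Cited1 and give rise to all nephron epithelia, and mice without Sall1 lack kidneys or have small ones. Loss of one copy of human SALL1 causes Townes-Brocks syndrome, in which kidney defects are part of the picture. Sall4 is best known for its role in pluripotent and germ cells, and Sall2 is the most divergent of the family.

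Transcript levels in E14.5 kidneys were read on 6 one-colour Agilent mouse arrays, each hybridised with 1 sample. The embryos were of mixed 129 and C57BL/6 background. In the Six2Cre line, in which the Six2 promoter drives Cre in nephron progenitors and a floxed Sall1 is deleted there, 2 control arrays (replicates 5 and 2) stood against 2 Sall1 knockout arrays (replicates 7 and 9). In the inducible line, titled Sall1CreER with floxed Sall1, 1 control array (titled wt/flox, replicate 2) stood against 1 knockout array (titled CreER/flox, replicate 5). For both, tamoxifen was given at E12.5 and kidneys were collected after 48 hours. The lines were read from the titles together with the series' design text. A description shared by the 6 samples speaks of tamoxifen, and the labels do not settle whether it was also given in the Six2Cre line. The titles give no CreER to the CreER control, so in that pair the effects of carrying CreER and of losing Sall1 cannot be told apart, and if CreER sits in the Sall1 locus, as the line's name reads, the knockout had 1 Sall1 allele changed before tamoxifen. The labels do not say which exons were floxed, whether the Six2Cre controls carried Cre, or whether each array came from its own embryo, so p-values measure the spread between these samples, which may be technical. Kidneys were profiled whole, and in the Six2Cre knockouts the deletion is aimed at the Six2 lineage and not at other cells. The labels do not give the full Sall1 genotype of these knockouts, so whether other cells had 2 intact copies is not known.

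Six2Cre control 5 and Six2Cre knockout 7 shared slide 1 and the other 4 arrays slide 2, so each Six2Cre pair can be read within a slide. Between 71.6% and 82.9% of probes were well above background; the lowest share was that of CreER knockout 5, whose negative control spots also had the largest SD (4.01, against 1.46 to 1.61 elsewhere). The kidney markers were present: all 10 nephron progenitor and all 10 stroma markers of the fixed lists were well above background on all 6 arrays. So were the 7 measured neural markers and the germ cell genes Ddx4 and Tfap2c, so passing this limit does not single out kidney markers. The germ cell gene Dppa3 was well above background on none. Muscle markers stood out on Six2Cre control 2, where their summed level was 37.1 times the array's 75th percentile, against 2.13 to 3.69 on the other 5 arrays. Below, a level is the processed signal on the log2 scale, less the 75th percentile of its array, and a difference is knockout minus control in log2 units. Apart from remarks on how bright a probe is, levels are not set against those of another probe.

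Sall1 and Sall3 had lower signal in both deletion lines, whereas Sall2 and Sall4 differed by less than 0.5 log2 units in either line. In the Six2Cre knockouts Sall1 was 2.37-fold lower and the 2 Sall3 probes were 3.99-fold and 5.70-fold lower (n = 2 arrays per group). On the CreER knockout array the order was the other way round: Sall1 was 6.87-fold lower, and the Sall3 probes were 1.89-fold and 1.62-fold lower. None of the 6 probes passed the threshold of 0.05 for the adjusted p (limma with Benjamini-Hochberg adjustment over 33894 probes) in any of the 3 tests run, nor did any other probe.

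**Figure D1:**
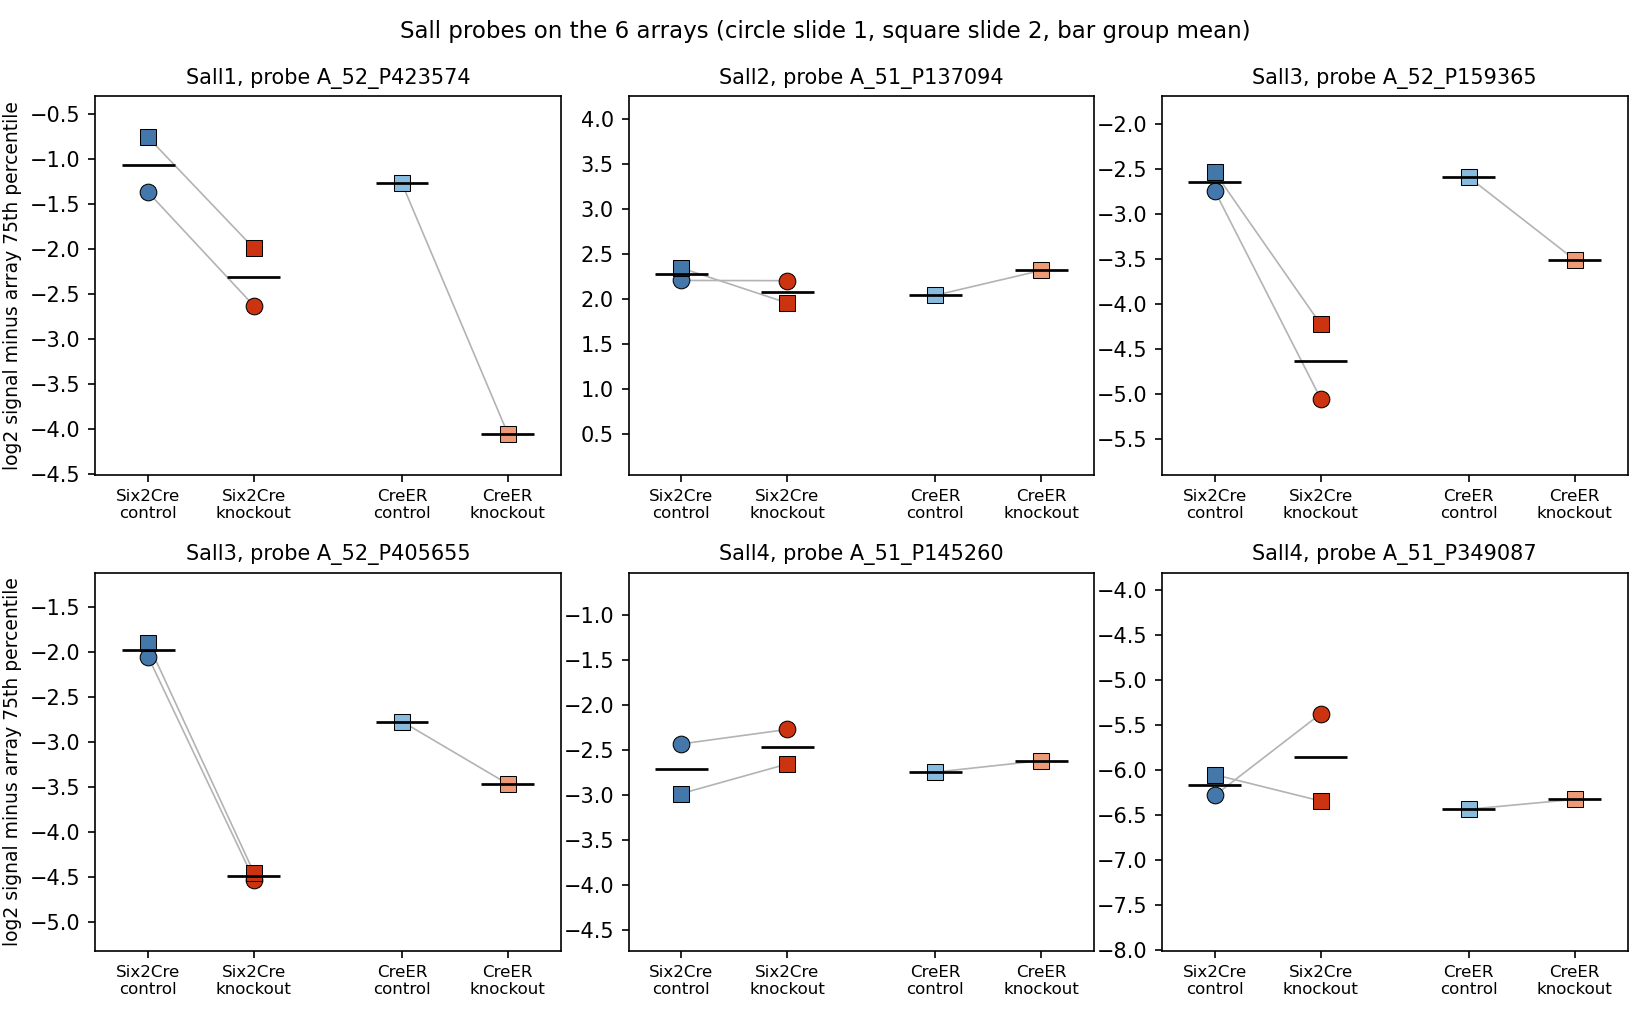
Level of each Sall probe (log2 scale, less the 75th percentile of the array) on the 6 arrays, by group; circles are slide 1, squares slide 2, bars group means, and grey lines join the arrays of a pair. Every panel spans the same number of log2 units. The Sall1 and Sall3 knockout arrays lie below all 3 control arrays, and the Sall2 and Sall4 arrays do not separate by genotype across both lines.

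Sall1, the targeted gene, was read by probe A_52_P423574. Its processed signal was 763 and 1117 intensity units on Six2Cre controls 5 and 2, 327 and 481 on Six2Cre knockouts 7 and 9, 847 on the CreER control and 108 on the CreER knockout. All 3 knockout arrays lay below all 3 controls, and the CreER knockout was the lowest by far. The scanner software's error for a single spot was at most 10.8% of the signal on these arrays; it covers the reading of 1 spot and not the spread between animals. Even on the CreER knockout array the spot was 5.14 times the dimmest probe well above background, so the remaining signal could be measured.

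In the Six2Cre line the Sall1 level was -1.06 ± 0.43 in controls and -2.31 ± 0.45 in knockouts (SD, n = 2 each). The difference of -1.25 (SE 0.37, limma 95% interval -2.22 to -0.28) left 42.1% of the control signal. The 2 slides gave nearly the same value, -1.26 on slide 1 and -1.23 on slide 2, although both arrays of slide 2 were brighter for Sall1 than their counterparts on slide 1. The limma adjusted p was 0.637, and 0.146 with slide as a block. With the block and eBayes trend and robust, an alternative known from earlier results to make calls on these arrays, it was 0.0283. Without Six2Cre control 2, the array with high muscle markers and the brightest Sall1 signal, the difference was -0.94, and without Six2Cre knockout 7 it was -0.93.

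In the CreER pair the Sall1 level went from -1.27 in the control to -4.05 in the knockout, a difference of -2.78 that left 14.6% of the control signal. Among the 33632 probes well above background on at least 1 of these arrays it ranked 26 from the lowest. With normexp background correction in place of the processed signal the difference was -2.21; there is no replicate and no test in this pair. Ordered by level, Six2Cre controls and the CreER control did not differ beyond the spread of the controls, the Six2Cre knockouts came next with a gap of 0.62 between the lower control and the higher knockout, and the CreER knockout was lowest. The difference between lines (CreER difference minus Six2Cre difference) was -1.53 (SE 0.65, limma 95% interval -3.21 to 0.15, adjusted p = 1.00), with the lone CreER arrays taken to vary like the Six2Cre arrays. The spread of the CreER arrays was not measured, so this interval settles neither that the lines differ in Sall1 nor that they do not. With line and slide in the model, the knockout difference over the 6 arrays together was -1.76 (SE 0.37, limma adjusted p = 0.388).

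The array carries 1 Sall1 probe, so no second probe could be set beside it. Where the probe lies with respect to the floxed exons was not analysed here, and a probe outside the deleted exons would read a shortened transcript as well. In whole kidneys, fewer cells that make a transcript and less transcript per cell cannot be told apart; this holds for every value here.

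Sall3, a close relative of Sall1 that is also made in the embryonic kidney, was read by 2 probes of the same RefSeq transcript. With probe A_52_P405655 the signal was 472 and 502 units on Six2Cre controls 5 and 2, 87.2 and 86.9 on Six2Cre knockouts 7 and 9, 298 on the CreER control and 160 on the CreER knockout. With probe A_52_P159365 it was 293 and 325 on the same controls, 60.9 and 102 on the knockouts, 339 on the CreER control and 157 on the CreER knockout. With either probe the Six2Cre knockouts were the dimmest arrays, the CreER knockout lay between them and the controls, and no knockout array overlapped the controls.

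The Six2Cre difference of Sall3 was -2.51 (SE 0.25, limma 95% interval -3.16 to -1.86) with probe A_52_P405655 and -1.996 (SE 0.37, interval -2.95 to -1.05) with probe A_52_P159365. These left 17.5% and 25.1% of the control signal. The first probe gave -2.48 on slide 1 and -2.55 on slide 2; the second gave -2.31 and -1.69. The probes share their samples and target, so they are not replicates of the condition. Their profiles, each centred on its own mean, were never more than 0.47 log2 units apart, with the largest gap on Six2Cre knockout 9. The limma adjusted p was 0.102 and 0.279. It was 0.0770 and 0.113 with slide as a block, and 0.00477 and 0.0165 with the block and eBayes trend and robust. When arrays were scaled to their median and not their 75th percentile, the first probe passed (-2.48, limma adjusted p = 0.0298) and the second did not (0.125). Without Six2Cre control 2 the differences were -2.44 and -1.89.

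In the CreER pair Sall3 differed by -0.69 with probe A_52_P405655 and by -0.92 with probe A_52_P159365. Both were lower, and both were short of 2-fold. The CreER control matched the Six2Cre controls with the second probe (-2.59 against -2.64 ± 0.15, SD, n = 2) but lay below them with the first (-2.78 against -1.98 ± 0.10), so the probes disagree on whether the 2 kinds of control carried the same Sall3 level. In both probes' order of levels the Six2Cre knockouts were lowest (-4.49 ± 0.05 and -4.64 ± 0.58), and the CreER knockout stood above them at -3.47 and -3.51. The difference between lines was 1.82 (SE 0.44, limma 95% interval 0.69 to 2.95, unadjusted p = 0.00924, adjusted p = 1.00) with the first probe and 1.08 (SE 0.64, interval -0.56 to 2.73) with the second. These intervals too take their spread from the Six2Cre arrays alone, so no difference between the lines in Sall3 was shown, and with the first probe the lone CreER control was itself lower than the Six2Cre controls. Over all 6 arrays the knockout difference was -1.91 (SE 0.43, limma adjusted p = 0.414) and -1.64 (SE 0.30, adjusted p = 0.344).

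**Figure D2:**
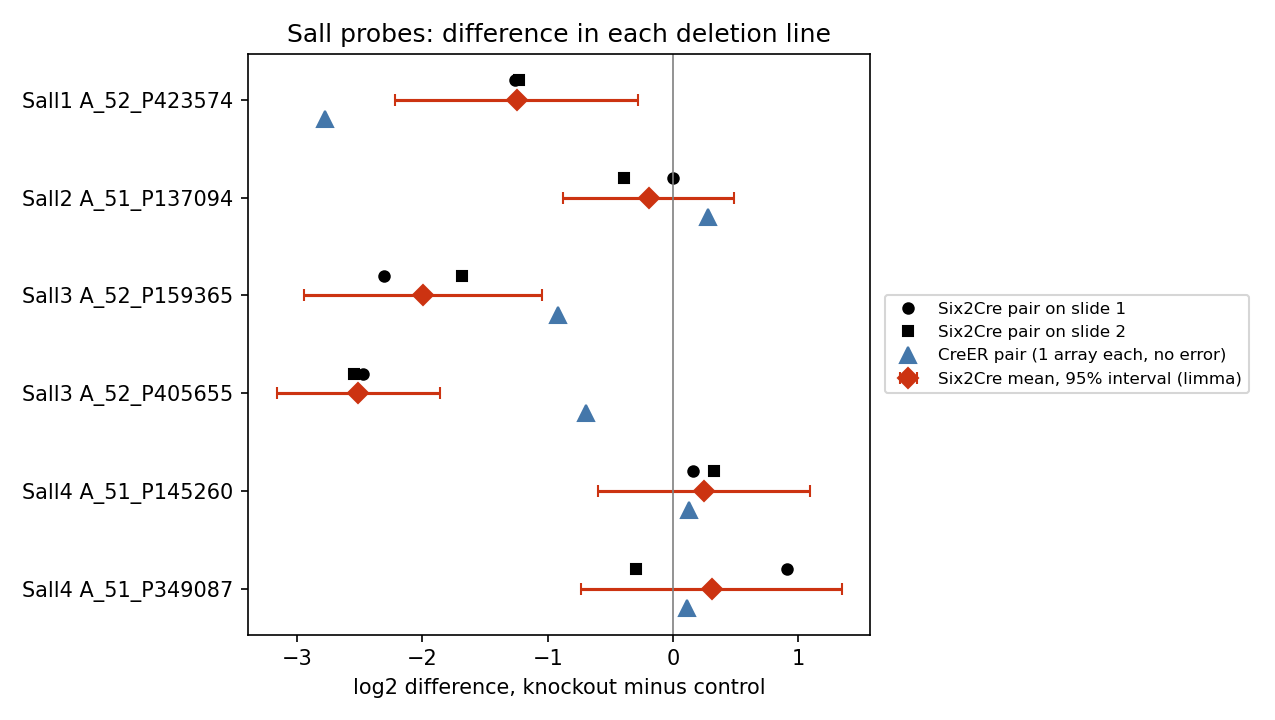
Log2 difference, knockout minus control, of each Sall probe. Red diamonds with bars are the Six2Cre means with limma 95% intervals (2 arrays per group), black circles and squares the pairs on slides 1 and 2, and blue triangles the CreER pair without an error. For Sall1 the CreER value (-2.78) lies below the Six2Cre interval, and for both Sall3 probes it lies above it. These intervals are for the Six2Cre mean and hold no spread of the lone CreER pair, so these positions show no difference between lines. For Sall2 and Sall4 all intervals include 0.

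Sall2 was read by probe A_51_P137094, one of the brighter probes of the array, with 9071 and 9581 units on Six2Cre controls 5 and 2, 9300 and 7407 on Six2Cre knockouts 7 and 9, 8405 on the CreER control and 8874 on the CreER knockout. The lines went in opposite directions by small amounts. The Six2Cre difference was -0.20 (SE 0.26, limma 95% interval -0.87 to 0.48, adjusted p = 1.00), made up of 0.00 on slide 1 and -0.39 on slide 2. The CreER difference was 0.28. In this fit the interval excludes a 2-fold change in the Six2Cre line in either direction. With median scaling the difference was -0.16 with a larger SE (0.34), so the exclusion is stated for the main fit only. The gap between the lower control and the higher knockout was 0.0026, and over all 6 arrays the difference was -0.04 (interval -0.50 to 0.43).

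Sall4 was read by a brighter and a dimmer probe. Probe A_51_P145260 gave 364 and 239 units on Six2Cre controls 5 and 2, 418 and 303 on Six2Cre knockouts 7 and 9, 304 on the CreER control and 290 on the CreER knockout. Slide 1 arrays were the brightest, and the groups overlapped. Its difference was 0.24 (SE 0.33, limma 95% interval -0.60 to 1.09), with 0.16 on slide 1 and 0.33 on slide 2, and 0.13 in the CreER pair. Without Six2Cre control 2 the sign turned (-0.03). Over all 6 arrays it was 0.21 (interval -0.12 to 0.53).

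The dimmer probe, A_51_P349087, gave 25.2 and 28.4 units on the Six2Cre controls, 48.6 and 23.5 on the knockouts, 23.5 on the CreER control and 22.1 on the CreER knockout. A single array, Six2Cre knockout 7, lay above the rest. The difference of 0.31 (SE 0.40, limma 95% interval -0.73 to 1.35) was 0.91 on slide 1 and -0.29 on slide 2, and without Six2Cre knockout 7 it was -0.18. On the CreER knockout array this spot was only 1.06 times the dimmest probe well above background, with a software error of 22.1%. Neither Sall4 probe therefore gave a difference beyond the spread between arrays, and neither interval excludes a 2-fold increase.

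Set against all probes, 3 of the 6 Sall probes (Sall1 and both of Sall3) were at least 2-fold lower in Six2Cre knockouts, where 2.89% of 33894 probes were. Without Six2Cre control 2, or without Six2Cre knockout 7, 2 of 6 were, because Sall1 then missed 2-fold; this count was added after the values had been seen. The same 3 probes were at least 2-fold lower in both slide pairs (1.52% of all probes). Sall1 is the targeted gene and the 2 Sall3 probes read 1 transcript, so these probe counts are not counts of separate genes. They do not describe the family as a whole. Both knockouts lay below both controls for 4 of the 6 probes, Sall2 being the fourth by its gap of 0.0026 (12.9% of all probes), and above both for 0 of 6 (16.6%). In the CreER pair 1 of the 6, Sall1, was at least 2-fold lower (2.2% of 33632 probes), and 0 of 6 were at least 2-fold higher (1.3%). All 3 knockouts lay below all 3 controls for Sall1 and both Sall3 probes (4.71% of all probes), the same probes were lower in each pair (15.4%), and Sall1 alone was at least 2-fold lower in each of the 3 pairs (0.248%).

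By test, 0 of the 6 probes and 0% of all probes passed in the Six2Cre comparison, the comparison over all 6 arrays and the difference between lines (limma adjusted p). At an unadjusted p under 0.05, 3 of the 6 were lower and 0 higher in Six2Cre knockouts, where 851 of all probes (2.51%) were lower and 1113 (3.28%) higher. Sall1 and both Sall3 probes were again the 3 over all 6 arrays, where 1317 of all probes (3.89%) were lower and 1815 (5.35%) higher. In the difference between lines, 1 Sall3 probe had such a p, on the higher side, as did 1.07% of all probes. With slide as a block limma again called 0, and with the block and eBayes trend and robust it called 364 lower, or 1.07%, and 329 higher, or 0.971%, with Sall1 and both Sall3 probes among the lower.

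Genes of a fixed list of nephron progenitor genes linked to Sall1 were also lower in the Six2Cre line. This list and the marker lists below were drawn up with earlier results of these data known. Their counts set against all probes are therefore descriptive and no independent support. Of the 8 of 11 listed genes matched to a probe, 8 were lower, with a median difference of -1.03 against 0.02 over all probes, of which 47.1% were lower. None passed over all probes (limma), and 6 were lower with an unadjusted p under 0.05, as were 2.51% of all probes. Cited1, a coregulator gene switched on in early progenitors, was 17.9-fold lower (-4.16, SE 0.39), and Six2, which holds progenitors undifferentiated, was 3.02-fold lower (-1.59, SE 0.27). Meox1 (-1.15), the Six2 partner Eya1 (-1.06), the integrin gene Itga8 (-0.9995) and the early mesenchyme factor Osr1 (-0.88) lay close to the Sall1 value of -1.25. Hoxd11 (-0.27) and Gdnf, the ligand that draws the ureteric bud (-0.04), were nearer 0. The Sall3 probes thus lay between Six2 and Cited1 in size.

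In the CreER pair the same 8 genes had a median of -0.37, with 6 lower, against -0.02 over all probes, of which 53.7% were lower. Cited1 (-2.85) and Osr1 (-1.01) were at least 2-fold lower. Six2 (-0.50), Eya1 (-0.23), Itga8 (0.01) and Meox1 (0.09) differed by less than 2-fold there, while Sall1 differed by -2.78. Gdnf was -0.74 and Hoxd11 -0.24. The fixed markers of progenitors had a median of -1.18 in the Six2Cre line and -0.37 in the CreER pair, and their summed level was 38.9 to 45.9 in Six2Cre controls, 15.1 in both knockouts, and 46.9 against 29.4 in the CreER pair. These markers share Six2, Cited1, Meox1, Eya1, Osr1, Gdnf and Itga8 with the 8 genes above, so the lists are not independent. All 10 markers were lower in the Six2Cre line. Markers of early nephrons, the first epithelia that progenitors form, were lower there for all 8 measured, with Pax8 all but unchanged (-0.003). Their median was -1.16, and their summed level was 13.1 in both controls against 5.44 and 5.98 in knockouts. In the CreER pair 6 of these 8 were lower, with a median of -0.50 and summed levels of 10.04 against 9.20. Stroma markers were higher in 9 of 10, with a median of 0.74 (0.05 in the CreER pair) and a summed level of 69.3 to 81.1 in Six2Cre controls and 118 to 135 in knockouts. All 9 measured macrophage markers were higher, with a median of 0.64 and summed levels of 3.53 to 4.38 against 5.67 to 7.14. They were higher in the CreER pair too, with a median of 0.35 and summed levels of 4.49 against 5.76. At an unadjusted p under 0.05 (limma, Six2Cre line), 9 progenitor and 5 early nephron markers were lower, and 5 stroma and 5 macrophage markers were higher. Over all probes 2.51% were lower and 3.28% higher at that p. No marker of these 4 lists passed after adjustment. How far these shifts in cell markers enter the Sall1 and Sall3 differences was not tested.

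**Figure D3:**
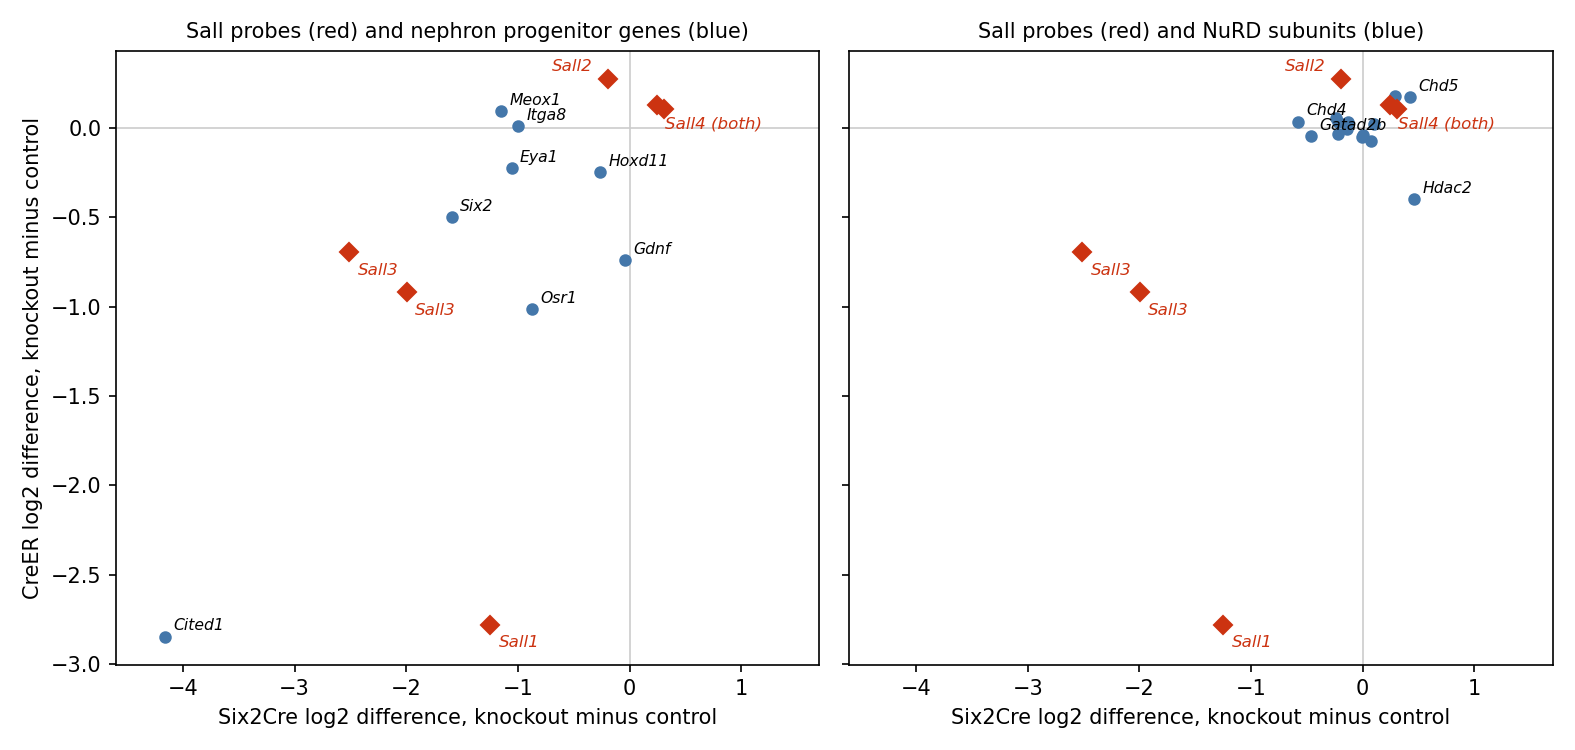
Six2Cre difference (x axis) against CreER difference (y axis), both in log2 units, knockout minus control, for the 6 Sall probes (red diamonds, both panels), 8 nephron progenitor genes (left, blue) and 14 NuRD subunits (right, blue; the 4 of largest Six2Cre difference are named). Cited1 (-4.16 and -2.85) and Sall1 (-1.25 and -2.78) lie lowest on the y axis, and the NuRD subunits all lie within 0.6 units of 0 on both axes.

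Subunits of NuRD, the complex through which Sall proteins repress, showed no common direction. Of 15 listed subunits 14 were matched to a probe, and all 14 were well above background on every array; Hdac1 was not matched. In Six2Cre knockouts 8 were lower and 6 higher, with a median of -0.07. None had an unadjusted p under 0.05 (limma), where 2.51% of all probes were lower and 3.28% higher. With 14 subunits, a count of none is near those shares. The largest differences were those of the helicase Chd4 (-0.58, SE 0.30), the deacetylase Hdac2 (0.46, SE 0.74), the scaffold subunit Gatad2b (-0.46, SE 0.38) and the helicase Chd5 (0.42, SE 0.34). Hdac2 and Gatad2b rested largely on 1 slide each, with 0.07 and 0.86 for Hdac2 and -0.91 and -0.0041 for Gatad2b on slides 1 and 2, and Chd4 was -0.95 on slide 1 and -0.21 on slide 2. In the CreER pair the 14 subunits ran from -0.40 to 0.18 with a median of 0.01, and none was 2-fold apart.

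Genes whose levels followed those of Sall1 most closely across the 6 arrays were ranked by the Euclidean distance between profiles centred on their own mean, over 13699 genes well above background on all arrays. Akr1c18 (0.98), a hydroxysteroid dehydrogenase gene, Dapl1 (1.02), Ocm (1.15), which encodes the calcium-binding protein oncomodulin, the Wnt antagonist gene Dkk1 (1.27) and the dynein gene Dync1i1 (1.35) came first. Their CreER differences ran from -2.02 for Dkk1 to -3.78 for Ocm and their Six2Cre differences from -1.30 for Dapl1 to -1.78 for Ocm; likeness to Sall1 in both follows from choosing them by their profile over these arrays.

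For Sall3 the closest genes to probe A_52_P405655 were Gc (0.58), which encodes the vitamin D-binding protein, Kynu (0.58), the kynureninase gene, Apom (0.72), the apolipoprotein M gene, Gjb2 (0.73), the connexin 26 gene, and Slc47a1 (0.76), which encodes a tubular transporter of organic cations. Their Six2Cre differences ran from -1.89 for Gjb2 to -2.38 for Apom, and their CreER differences from -0.22 for Gjb2 to -1.49 for Apom. For probe A_52_P159365 the closest genes were Pnmt (0.33), the gene of the enzyme that makes adrenaline, Dnajc22 (0.36), Ch25h (0.39), the cholesterol 25-hydroxylase gene, Pbld1 (0.41) and B3galt5 (0.45), with Six2Cre differences from -1.70 for B3galt5 to -1.89 for Pbld1. The lists of the 2 Sall3 probes have no gene in common, and they describe likeness with no test.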

How the data were processed

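Total RNA of 6 samples was prepared with Trizol and 0.25 ug of each labelled with Cy3, per the labels' protocols. The authors deposited Feature Extraction 10.5.1.1 files; their processed signal, per the file headers, is a linear intensity, background-subtracted and detrended within each array, with no scaling to other arrays. The series table that the authors deposited has these same intensities: 100% of its values for single-spot probes lay within a relative tolerance of 0.001. The software flags (other) mark probes well above background and outliers. Column medians of the series table ran from 187 to 235.

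Spots of a probe were averaged as log2, each array's 75th percentile was subtracted, and probes with an outlier flag on any array (leaving 40817 of 41174) or well above background on fewer than 2 arrays were left out. RefSeq accessions, without versions, named 25097 probes for 17305 genes through a GRCm38.p6 table; the array's design is on mm9, so no positions are given. A listed gene was represented by its brightest probe. Probe and protein sequences were not used here, and whether a probe also binds a relative's transcript was not tested.

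One limma 3.58.1 fit (R 4.3.3, lmFit and eBayes, two-sided, Benjamini-Hochberg at 0.05) of the 4 groups gave the Six2Cre difference and the difference between lines; a second gave the genotype effect over the 6 arrays, adjusted for line and slide. The CreER pair has no test. The number of arrays limits the precision. Genes named are every Sall probe, the 4 NuRD subunits of largest Six2Cre difference, the measured genes of the progenitor list (some listed genes are not reported here), and the 5 genes of closest profile to each Sall1 or Sall3 probe. The members, lists, tests and alternatives were chosen with earlier results of these data known. Alternatives were normexp (offset 50), quantile and median scaling, 2 other filters, 1 probe per gene, slide as a block, eBayes trend and robust, the Six2Cre arrays alone, the series table, and leaving out each array. Figures were drawn with matplotlib 3.10.9.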

Additional observations from a re-analysis of the deposited data

How the results depend on the processing

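Of 276 recomputed values of single probes, 260 kept their direction and, where tested, their side of the threshold, 10 turned sign, 4 passed a threshold missed before, and 2 untested CreER differences kept their sign but moved by more than the spread between arrays. Sall1 and both Sall3 probes were lower under every alternative run, in the Six2Cre, CreER and 6-array comparisons. Many alternatives could not move the Six2Cre difference: the filters, 1 probe per gene, the slide block, eBayes trend and robust, and leaving out CreER arrays. The series table holds the same intensities. The 260 values include these, so for direction only normexp, the other scalings and leaving out a Six2Cre array bear on the Six2Cre difference. With normexp the CreER difference was -2.21 for Sall1 and -0.44 for Sall3 probe A_52_P405655, and that of Sall4 probe A_51_P349087 between lines turned to 0.14. Median scaling gave -2.48 for Sall3 probe A_52_P405655 with a call (limma adjusted p = 0.0298), and 150 probes called against 0 (36 higher, 114 lower). Slide as a block, with eBayes trend and robust, called Sall1 (-1.25, adjusted p = 0.0283) and both Sall3 probes (-1.996, 0.0165, and -2.51, 0.00477) among 693 probes. Over all 6 arrays 0 probes were called, against 26 with normexp, 65 with median scaling and 13 with eBayes trend and robust. The cause was not tested.

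Leaving out 1 array each gave a Six2Cre difference from -1.57 to -0.93 for Sall1, -2.58 to -2.44 and -2.41 to -1.58 for Sall3 probes A_52_P405655 and A_52_P159365, -0.32 to -0.07 for Sall2, and -0.032 to 0.52 and -0.18 to 0.79 for Sall4 probes A_51_P145260 and A_51_P349087, with 0 to 3 probes called. The lone array of a group was then assumed to vary like the other groups. Between lines Sall1 ran from -1.85 to -1.21, Sall4 from -0.39 to 0.16 and -0.68 to 0.29. Over all 6 arrays Sall1 ran from -2.02 to -1.25, Sall2 from -0.20 to 0.14, and Sall4 probe A_51_P349087 from -0.091 to 0.51. No paired analysis was possible by replicate number, because the groups of a line share none; the slide was the block. Depth in arrays is signal over background: the dim Sall4 probe and CreER knockout 5 set the limit.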
